A study of Mus musculus with 6 samples.

Results

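The genes described here encode the initiation and elongation factors of protein synthesis, with their kinases and binding proteins. They were taken from the deposited gene symbols by name alone, as every symbol made of Eif or Eef, a digit from 1 to 6 and further small letters or digits, and 64 of 30281 symbols met this rule. The 64 symbols hold 326 of the 88198 deposited transcripts. Symbols of pseudogenes and the selenocysteine elongation factor Eefsec, 7 in all, fell outside the rule.

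Translation of most cellular mRNAs starts when eIF4E binds the cap and joins the scaffold eIF4G and the helicase eIF4A, while eIF2 brings the initiator tRNA to the small ribosomal subunit together with eIF1, eIF1A, eIF3 and eIF5. eEF1A then delivers aminoacyl-tRNA to the ribosome and eEF2 moves the ribosome along the mRNA. The kinase complex mTORC1, which the TSC1-TSC2 complex restrains and rapamycin inhibits in part, controls several of these factors by phosphorylation, among them the 4E-BPs, eEF2 kinase and eIF4B. The mRNAs of some factors, such as eEF1A, eEF2 and several eIF3 subunits, belong to the TOP class, whose translation depends on mTORC1 through a run of pyrimidines at the start of the mRNA.

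RNA was sequenced in 6 mouse libraries, with 1 library per condition. The pair of mouse embryonic fibroblast (MEF) lines was labelled Tsc2-/- p53-/- and Tsc2+/+ p53-/-, so that both share the label p53-/-, and neither was treated. MKOC and TJ are kidney epithelial lines labelled Tsc2-null, TJ being derived from a secondary tumor in C57BL6 mice, and each was left untreated or given 100 nM rapamycin for 18 hours in serum-free medium, for which the protocol names diluent as the control. Each MEF genotype is 1 line, so that a difference between the MEF lines and a difference between genotypes cannot be told apart. In bulk RNA of this type, fewer cells of a type and less RNA per cell cannot be told apart either.

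Libraries held between 22887020 and 37505004 estimated counts. Tsc2 RNA was present in all 6 libraries, at 22.6 TPM (transcript abundance scaled by length and to a fixed sum per library) in the library labelled Tsc2+/+, 10.5 TPM in that labelled Tsc2-/- and between 19.1 and 49.1 TPM in the libraries labelled Tsc2-null, and the summed level does not tell which exons were read. Trp53 RNA was likewise present in both MEF libraries, at 26.3 and 28.6 TPM. Names such as Tsc2-/- or p53-/- therefore mean here that the libraries carry those labels. The kidney lines expressed 6 of 8 kidney epithelial markers above 1 TPM. Epcam and Krt19 were the exceptions. The MEFs expressed 8 (Tsc2+/+) and 9 (Tsc2-/-) of 9 fibroblast markers, and the library labelled Tsc2-/- also held 5 of 5 mesothelial markers, with a summed level of 448.5 TPM against 2.64 TPM in that labelled Tsc2+/+.

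The start of the mRNA is where mTORC1 is known to act on TOP mRNAs, so the sequences around the annotated starts are given for the 5 of 9 TOP genes with a RefSeq promoter entry. Each run holds 15 bases before the RefSeq start in lower case and the 15 bases from the start on in capitals, on the coding strand of GRCm38.p6.
Eef1a1 (chr9:78481710-78481739, minus strand): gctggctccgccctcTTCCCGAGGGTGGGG
Eef1b2 (chr1:63176816-63176845, plus strand): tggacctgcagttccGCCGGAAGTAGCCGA
Eef2 (chr10:81176616-81176645, plus strand): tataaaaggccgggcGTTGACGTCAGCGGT
Eif3f (chr7:108934400-108934429, plus strand): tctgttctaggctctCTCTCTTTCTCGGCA
Eif4b (chr15:102073758-102073787, plus strand): ggtcttcccgtcggaCGCCGCGCCACCCCC
Only Eif3f started with a C followed by at least 4 pyrimidines at the annotated base, with 11 pyrimidines in a row from the start. Eef1a1 started with 5 pyrimidines in a row, led by a T. Such a start stood at 2 of 50 members with a RefSeq promoter entry (4.0%) and at 3.01% of all 27025 genes with one. These are annotated starts, and where the mRNAs start in these cells was not measured. An annotated start without the run therefore does not show that the mRNA lacks one. The other motif searched was the E-box CACGTG, which reads the same on both strands and lies between 250 bases before and 50 bases after the start of 12 of 50 members (24.0%), against 8.09% of all genes with an entry. Eef2 and Eif3f carried it 43 and 68 bases before the start, Eif4e 64 and 228 bases before it, and Eif5a carried 3 copies.

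The factors were abundant. Of the 64 members, 60 reached 1 TPM in all 6 libraries, 54 reached 10 TPM and 29 reached 100 TPM, and together they took between 2.65% and 3.38% of all TPM. Eef1a1, the elongation factor that carries aminoacyl-tRNA, made up between 36.6% and 51.5% of this sum, with 17411 TPM in Tsc2+/+ MEFs, 9980 TPM in Tsc2-/- MEFs, 11158 and 13755 TPM in untreated and rapamycin-treated MKOC cells, and 10532 and 13011 TPM in untreated and treated TJ cells. Eef2, at 1322 to 2359 TPM, was the next most abundant gene in the MEFs and in the treated kidney lines. In the untreated kidney lines Eef1g, the gamma subunit of the eEF1 complex, stood above it, with 1988 TPM in MKOC and 1567 TPM in TJ cells. At the other end, Eif4e1b, known from oocytes, stayed below 1 TPM in all 6 libraries, and the neuronal and muscle isoform Eef1a2 reached 1.15 TPM only in untreated MKOC cells.

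**Figure D1:**
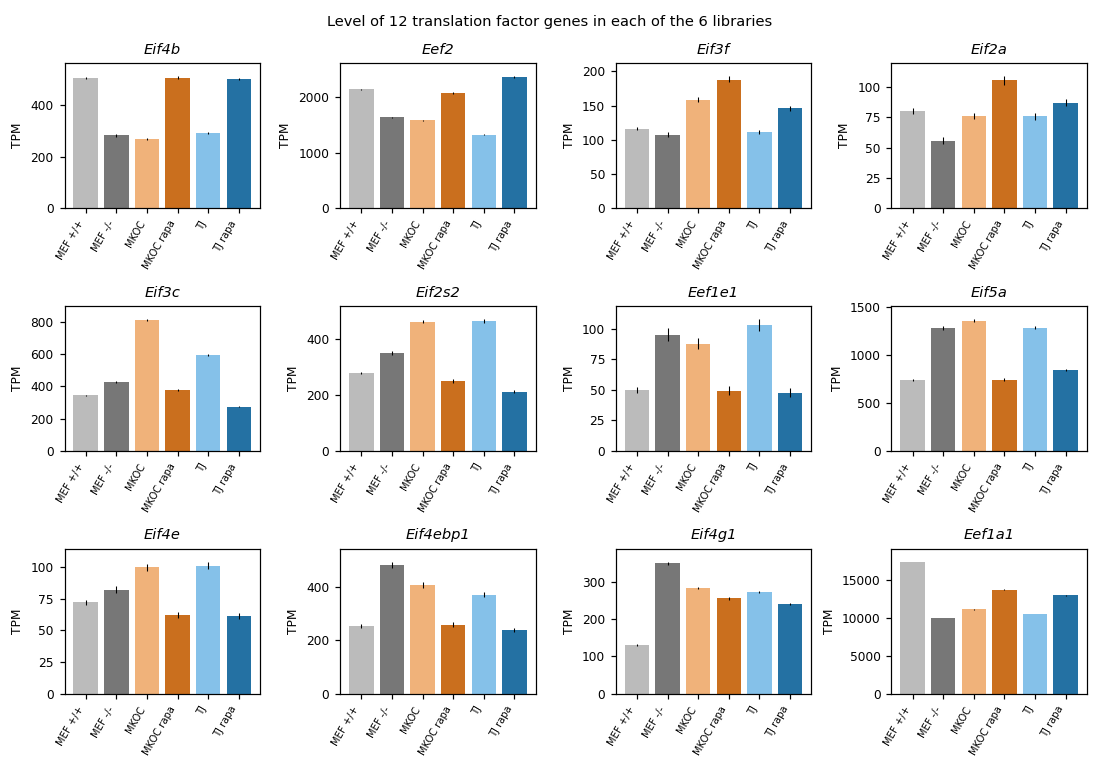
Level of 12 members in each of the 6 libraries, in TPM from 0, with bars from counting error alone (95% intervals). Eif4b was near 500 TPM in Tsc2+/+ MEFs and in both rapamycin-treated lines, and below 300 TPM in the other 3 libraries, whereas Eif4ebp1 and Eif5a had the reverse order.

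Rapamycin was compared with no treatment in the kidney lines, with the line as a covariate, so that MKOC and TJ served as the only replicates. More factors fell than rose. Of the 61 members tested, 29 were lower and 5 higher at an adjusted p under 0.05 in edgeR's quasi-likelihood test, and 27 were not called. Over all 12952 genes tested, 17.4% were called lower and 17.5% higher. The median log2 fold change was -0.30 over the members and 0.02 over all genes. The 3 members too low to test were Eif4e1b, Eif4e3 and Eif4ebp3.

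The lines that gave these calls were also viewed one by one, which is no independent check. Within MKOC cells all 29 genes called lower fell and all 5 called higher rose by TPM. In TJ cells 28 of the 29 fell and all 5 rose. The exception was Eef2k, whose change in TPM was 0.00 in TJ cells although its normalized counts fell from 74.3 to 52.1 CPM. A transcript of 203 bases was given 9.42 TPM from 3 counts in treated TJ cells and none in the untreated ones, and without it Eef2k went from 39.7 to 30.3 TPM.

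**Figure D2:**
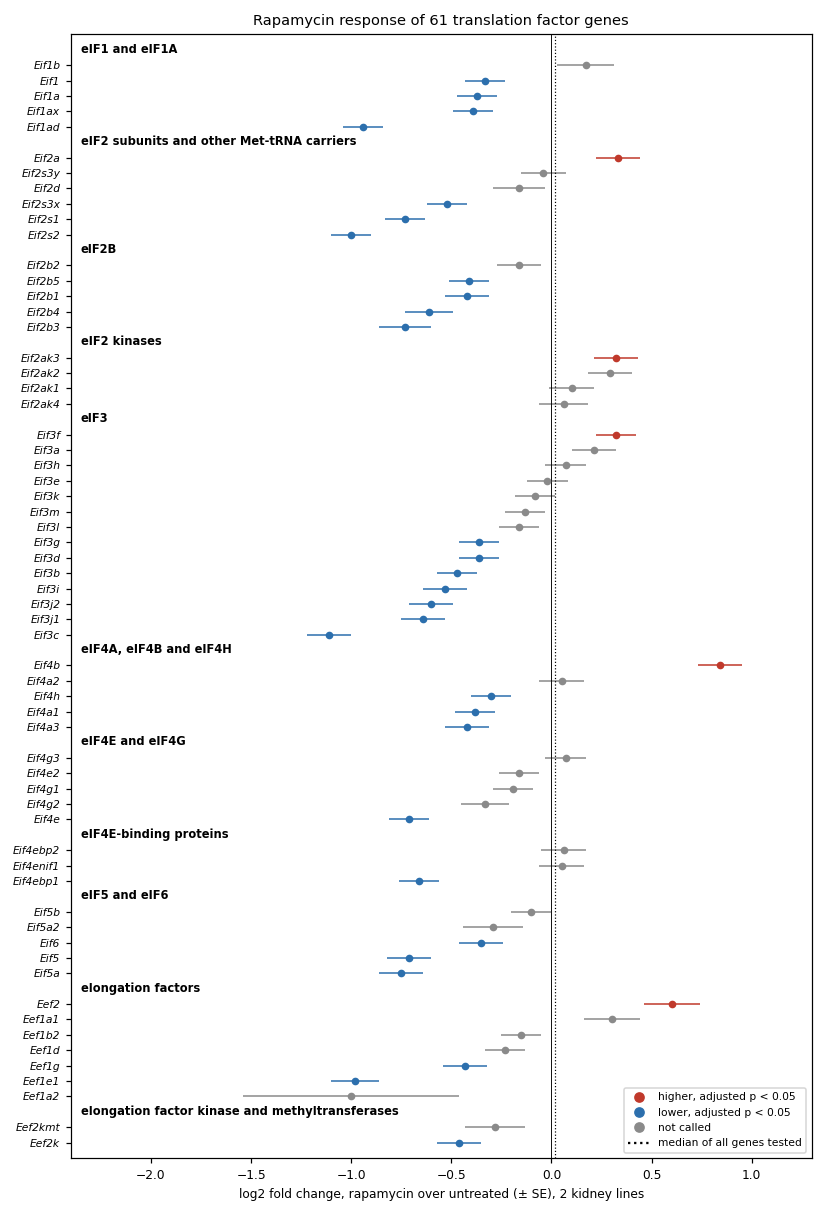
Log2 fold change of 61 members, rapamycin over untreated, by role, with the SE of the edgeR fit over 4 libraries. Eif4b and Eef2 stand to the right, and Eif3c, Eif2s2, Eef1e1 and Eif1ad lie farthest to the left among the called genes.

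Of the 9 members known as TOP mRNAs 3 rose, 1 fell and 5 were not called, with a median log2 fold change of 0.07. Eif4b, Eef2 and Eif3f rose, Eef1g fell, and Eef1a1, Eef1b2, Eef1d, Eif3e and Eif3h were not called. Of the 3 that rose, Eif3f lost its call with DESeq2, with limma and without the line as a factor, and Eef2 only in the last. Eef1g also lost its call without the line as a factor. Of the 52 other members tested 2 rose and 28 fell, with a median of -0.36. The choice of the TOP list was made with these results known, and the difference between the groups was not tested.

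Eif4b, which stimulates the helicase eIF4A and is a substrate of the S6 kinases, rose most. Its level was 268.5 TPM in untreated and 505.3 TPM in treated MKOC cells, and 291.1 and 500.2 TPM in TJ cells. Both treated libraries lay above both untreated ones. The log2 fold change was 0.84 ± 0.11 (SE of the edgeR fit over 2 lines, edgeR adjusted p = 3.6e-04). Eef2 went from 1584 to 2069 TPM in MKOC cells and from 1322 to 2359 TPM in TJ cells, a log2 fold change of 0.60 ± 0.14 (edgeR adjusted p = 0.0086), and its groups did not overlap either. Eif3f, a subunit of eIF3, went from 158.4 to 188.0 TPM in MKOC cells and from 112.1 to 145.9 TPM in TJ cells. Here the treated TJ library stayed below the untreated MKOC library, so that the groups overlapped, and the log2 fold change was 0.32 ± 0.10 (edgeR adjusted p = 0.027). Eef1a1 had log2 TPM changes of 0.30 in MKOC and 0.31 in TJ cells, but its fitted log2 fold change of 0.30 ± 0.14 was not called (edgeR adjusted p = 0.13). The gene of the TOP list that fell was Eef1g, from 1988 to 1460 TPM in MKOC cells and from 1567 to 1188 TPM in TJ cells.

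Among the factors that bring in the initiator tRNA, 3 of the 4 genes for eIF2 subunits fell. Eif2s2, the beta subunit, went from 461.2 to 249.6 TPM in MKOC cells and from 464.7 to 212.1 TPM in TJ cells. The lines were nearly level before treatment and both were far lower after it, with a log2 fold change of -1.0 ± 0.10 (edgeR adjusted p = 1.1e-04). Eif2s1, the alpha subunit whose phosphorylation limits initiation under stress, went from 102.3 to 63.1 TPM and from 105.6 to 63.0 TPM in the same order (log2 fold change -0.73 ± 0.10). Eif2s3x, the X-linked gamma subunit, fell by 0.52 ± 0.10 on the log2 scale, while its Y-linked counterpart Eif2s3y had a log2 fold change of -0.04 ± 0.11 (edgeR adjusted p = 0.83). Eif2s3x was therefore 1.27 times as abundant as Eif2s3y in untreated and 0.852 times in treated MKOC cells, and 2.01 and 1.51 times in TJ cells. Eif2a, a protein distinct from the eIF2 alpha subunit that can carry initiator tRNA, rose by 0.33 ± 0.11 on the log2 scale (edgeR adjusted p = 0.035), a call lost with DESeq2, with limma and without the line as a factor.

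Of the 5 subunits of eIF2B, the exchange factor that reloads eIF2 with GTP, 4 fell, the exception being Eif2b2, with a log2 fold change of -0.16 (edgeR adjusted p = 0.32). Eif2b3 changed most, from 41.7 to 28.6 TPM in MKOC cells and from 47.7 to 25.0 TPM in TJ cells (log2 fold change -0.73 ± 0.13), and Eif2b4 followed with -0.61 ± 0.12. Without the line as a factor Eif2b3 kept its call, and Eif2b1, Eif2b4 and Eif2b5 lost theirs. Of the 4 eIF2 kinases 1 passed the test. Eif2ak3 (PERK), the kinase of endoplasmic reticulum stress, went from 12.7 to 17.0 TPM and from 15.6 to 19.0 TPM, and its log2 fold change of 0.32 ± 0.11 only just passed the threshold (edgeR adjusted p = 0.047), a call lost with DESeq2, with limma and without the line as a factor. The heme-regulated Eif2ak1, the RNA-activated Eif2ak2 (PKR) and the amino acid sensor Eif2ak4 (GCN2) were not called, with log2 fold changes of 0.10, 0.29 and 0.06. By normalized counts, Eif2ak1 had log2 changes of 0.22 in MKOC and -0.02 in TJ cells, and Eif2ak4 of 0.25 and -0.13.

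Of the 14 genes for eIF3, the scaffold of the small ribosomal subunit during initiation, 7 fell and 1 rose. Eif3c had the largest fall of all members called, from 812.1 to 379.2 TPM in MKOC cells and from 594.1 to 274.3 TPM in TJ cells, with a log2 fold change of -1.11 ± 0.11 (edgeR adjusted p = 6.9e-05). The groups were far apart. In untreated cells Eif3c was the most abundant subunit, 2.31 times the median of the other subunits (Eif3j1 and Eif3j2 left out) in MKOC and 1.83 times in TJ cells. After rapamycin it stood at 1.42 and 1.08 times that median, and Eif3h had become the most abundant. Eif3a, the largest subunit, was not called (log2 fold change 0.21 ± 0.11, edgeR adjusted p = 0.17). Eif3j1 and Eif3j2 fell by 0.64 and 0.60 on the log2 scale. Of the eIF3 calls, those of Eif3c and Eif3j1 were kept without the line as a factor, and the others were lost. Of the sequence words of 31 bases in Eif3j2, 94.3% also occur in other genes, above all Eif3j1, and the separate values of the pair are uncertain.

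Of the cap-binding group, Eif4e itself went from 99.5 to 62.2 TPM in MKOC cells and from 101.0 to 61.0 TPM in TJ cells (log2 fold change -0.71 ± 0.10, edgeR adjusted p = 4.9e-04). Eif4ebp1, whose protein holds eIF4E inactive until mTORC1 phosphorylates it, went from 408.0 to 257.5 TPM and from 370.9 to 237.4 TPM (log2 fold change -0.66 ± 0.10, edgeR adjusted p = 6.9e-04). Both genes fell to a similar degree, and the TPM of Eif4ebp1 remained close to 4 times that of Eif4e, at 4.10 and 4.14 in untreated and treated MKOC cells and 3.67 and 3.89 in TJ cells. Eif4ebp2, the second binding protein, had a log2 fold change of 0.06 ± 0.11 and was not called, so that its TPM went from 0.442 to 0.698 times that of Eif4e in MKOC cells and from 0.453 to 0.833 times in TJ cells. Eif4ebp3 was listed below 1 TPM in 5 libraries and at 1.44 TPM in treated TJ cells. Of its sequence words 66.4% also occur in Ankhd1, which held at least 3475 counts against at most 16.1 for Eif4ebp3, so that these values are uncertain. The scaffolds were not called, with log2 fold changes of -0.19 for Eif4g1, -0.33 for Eif4g2 (edgeR adjusted p = 0.062) and 0.07 for Eif4g3.

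Of the 3 genes for eIF4A helicases, 2 fell. Eif4a1 went from 978.7 to 742.7 TPM in MKOC cells and from 1065 to 831.1 TPM in TJ cells (log2 fold change -0.38 ± 0.10, edgeR adjusted p = 0.017), and Eif4a3, the helicase of the exon junction complex, fell by 0.42 ± 0.11 (edgeR adjusted p = 0.013). The calls of Eif4a1 and Eif4a3 were lost without the line as a factor. The paralog Eif4a2 was not called (0.05 ± 0.11), and the difference between the paralogs was not tested. Eif4a1 shares 26.1% of its words with 6 other genes, the pseudogene Eif4a-ps4 first among them, whose counts reached 28.1% of those of Eif4a1. Eif4h, which acts on eIF4A like eIF4B, had a log2 fold change of -0.30 ± 0.10 (edgeR adjusted p = 0.047), a call lost under every alternative except that without a filter. Eif4b was 1.02 times as abundant as Eif4h in untreated and 2.56 times in treated MKOC cells, and 1.53 and 2.94 times in TJ cells.

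Among the start-site and later factors, Eif5, which makes eIF2 hydrolyse its GTP, and Eif5a, the hypusine-containing factor that relieves stalled ribosomes, fell by 0.71 and 0.75 on the log2 scale. Eif5a went from 1361 to 744.6 TPM in MKOC cells and from 1285 to 845.9 TPM in TJ cells. Its paralog Eif5a2 was not called (-0.29 ± 0.15). Eif1ad went from 77.8 to 40.3 TPM and from 73.0 to 38.9 TPM (log2 fold change -0.94 ± 0.10), and Eef1e1, a member of the multi-tRNA synthetase complex rather than of the elongation machinery, went from 87.7 to 49.3 TPM and from 103.1 to 47.5 TPM (log2 fold change -0.98 ± 0.12). Eif6, which keeps the ribosomal subunits apart, fell by 0.35 ± 0.11 (edgeR adjusted p = 0.036), a call lost with upper-quartile or library size scaling, with DESeq2 and without the line as a factor. Eef2k, the kinase that inactivates eEF2, fell by 0.46 ± 0.11 in counts (edgeR adjusted p = 0.0083), a call lost without the line as a factor and with limma on TPM, where the log2 fold change was -0.19. Eef1a2 was near the floor and was not called.

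**Figure D3:**
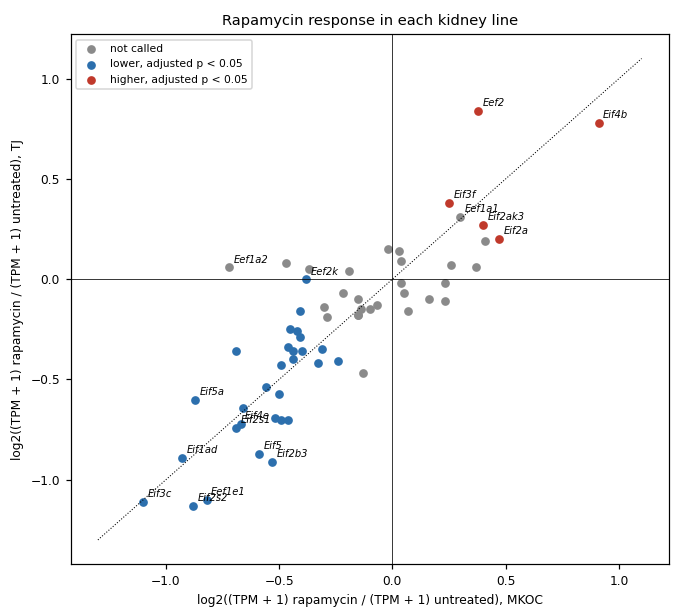
Log2 change of TPM with 1 added, rapamycin over untreated, in MKOC cells (horizontal axis) and in TJ cells (vertical axis) for 61 members, coloured by the edgeR call. The dotted line marks equal change. The 5 genes called higher lie at the upper right, and the genes called lower lie at the lower left, except Eef2k, which sits on 0.00 in TJ cells.

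By normalized counts, 50 of 61 members had the same sign of response in both lines, and the median absolute difference of the log2 response between lines was 0.17, against 0.20 over all genes tested. Only Eef1a2 differed by 1.5-fold or more, at a level near the floor. With 1 library per line and condition the difference in response could not be tested.

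Of 44 other genes of translation outside the rule, 43 were tested, and 3 rose while 17 fell, with a median log2 fold change of -0.30. Pdcd4, an inhibitor of eIF4A, rose most, from 6.38 to 31.9 TPM in MKOC and from 9.82 to 46.2 TPM in TJ cells (2.23 ± 0.12), followed by Paip2 (0.46) and Tpt1 (0.36). The largest falls were those of Mknk1, an eIF4E kinase (-1.11), of the stress factor Atf4 (-1.05) and of Ppp1r15a, the phosphatase subunit that restores eIF2 (-0.90).

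Marker lists also differed with treatment. The kidney epithelial sum was 1429 and 2074 TPM in untreated and treated MKOC cells and 1643 and 2454 TPM in TJ cells, mostly from Krt8, Krt18 and Cdh16, while Pax8 was 141 and 121 TPM in MKOC and 147 and 164 TPM in TJ cells. The fibroblast sum, nearly all Vim, was 4742 and 7595 TPM in MKOC and 3651 and 5341 TPM in TJ cells, and the mesothelial sum, nearly all Msln, was 80.1 and 150.6 TPM in MKOC and 69.6 and 97.8 TPM in TJ cells. The share of counts on mitochondrial genes was 1.88% and 4.22% in MKOC and 3.66% and 4.51% in TJ cells. Their part in the response of the factors was not tested.

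TJ cells were then compared with MKOC cells in the same fit, with treatment as a covariate. None of the 61 members was called higher in TJ cells, at an adjusted or an unadjusted p under 0.05 in edgeR or DESeq2. Limma on log2 TPM called none at an adjusted and 1 at an unadjusted p under 0.05. Over all genes 5.47% were called higher and 3.32% lower. The 4 members called lower in TJ cells were Eif2s3y, Eif5a2, Eif3c and Eif3f. Eif2s3y stood at 124.0 and 130.1 TPM in untreated and treated MKOC cells against 84.9 and 76.0 TPM in TJ cells, a log2 fold change of -0.71 ± 0.11 (edgeR adjusted p = 0.0035). The lines did not overlap for this gene. Eif5a2 was low in both lines, at 5.83 and 4.54 TPM against 3.37 and 2.97 TPM (-0.72 ± 0.15, edgeR adjusted p = 0.015). Eif3c and Eif3f were lower by 0.48 and 0.46 on the log2 scale. With limma these 3 calls were lost, and that of Eif5a2 also with DESeq2, and without treatment as a factor all 4 were lost, as was the call of every other gene, with Eif2s3y still at -0.71.

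MEFs labelled Tsc2-/- and Tsc2+/+ were compared as 1 library against 1, without a test. The ratio was that of TPM with 1 added, for genes of at least 1 TPM in 1 of the libraries. The median log2 change was 0.45 over all 12771 such genes and 0.20 over the 61 members, and the changes of single members are to be read beside the former. Transcripts under 300 bases took 20.9% of TPM in the MEFs labelled Tsc2+/+ but 7.12% in those labelled Tsc2-/-. The mesothelial markers that separate these lines are given above, and their part in the changes of the factors was not tested.

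At least 2-fold higher in Tsc2-/- MEFs were 4 members, against 25.2% of all genes, and 2 were at least 2-fold lower, against 5.18%. With the median ratio set to 1 the counts became 2 and 5, and with CPM on TMM factors 2 and 6. The shares of 25.2% and 5.18% belong to the unscaled ratio. Shares over all genes were not computed for the other scalings, so their counts cannot be read against these. Eif4g1, the main scaffold of the cap-binding complex, went from 130.0 to 350.0 TPM (2.68-fold) and Eif4g3 from 7.08 to 20.5 TPM (2.66-fold). Eif1a, which stabilises the scanning ribosome, went from 59.6 to 136.3 TPM (2.27-fold) and Eif2b4 from 13.8 to 31.8 TPM (2.22-fold). Under both other scalings Eif1a and Eif2b4 were the members that fell short of 2-fold. Eif4e3, a divergent relative of eIF4E, was 2.94 and 0.194 TPM, 3.30-fold lower in Tsc2-/- MEFs with 1 TPM added, a log2 change of -1.72 that became -3.37 with 0.1 TPM and -0.61 with 5 TPM added. Eef2k was 43.5 and 18.1 TPM, but the 203-base transcript supplied 22.8 TPM from 3.54 counts in the Tsc2+/+ library. Without transcripts under 300 bases, an alternative chosen after the values were seen, Eef2k was 20.7 and 18.1 TPM. That was the only member transcript past 8-fold in the MEFs, where 0.830% of all transcripts were.

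Eif4ebp1 was 253.5 TPM in Tsc2+/+ and 482.6 TPM in Tsc2-/- MEFs (1.90-fold), Eif4ebp2 29.7 and 55.0 TPM (1.83-fold) and Eif5a 740.7 and 1282 TPM (1.73-fold). Eif4e differed less, with 71.9 and 82.0 TPM, and the ratio of Eif4ebp1 to Eif4e was 3.53 in Tsc2+/+ and 5.89 in Tsc2-/- MEFs. All 9 TOP mRNAs lay below the median change of all genes, with a median log2 change of -0.32, as did 43 of the 61 members in all. Eif4b was 503.1 TPM in Tsc2+/+ and 281.7 TPM in Tsc2-/- MEFs, Eef1a1 17411 and 9980 TPM, Eef1b2 1671 and 1078 TPM and Eef2 2140 and 1634 TPM.

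**Figure D4:**
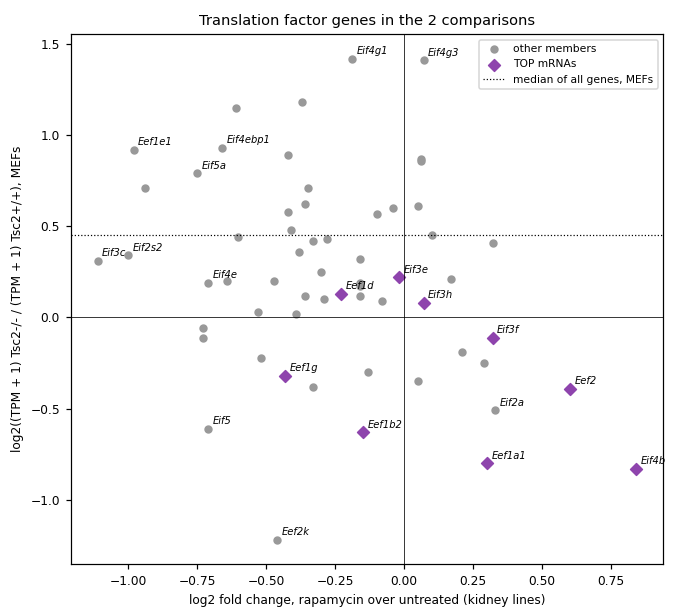
Log2 fold change with rapamycin in the kidney lines (horizontal axis) against the log2 change in MEFs labelled Tsc2-/- over Tsc2+/+ (vertical axis) for 60 members, TOP mRNAs as diamonds. The 9 diamonds lie below the dotted median of all genes in the MEFs, and Eif4b and Eef2 lie at the lower right, where genes are high with rapamycin and low in Tsc2-/- MEFs. The Eef2k point rests on the short transcript.

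The MEF and rapamycin comparisons share no library. Over 60 members measured in both, the changes had a Pearson r of -0.27 across genes, against -0.05 over all 11462 genes measured in both. Genes are not independent replicates, and no test was made. The 5 members that rose with rapamycin all lay below the median change in the MEFs, as did 52.5% of all genes that rose with it. Of the 29 that fell with rapamycin, 11 lay above that median, against 18 of 60 members in all and 1161 of 2167 of all genes that fell with it. Eif4b and Eef2 thus rose with rapamycin and lay below that median in the MEFs. Eif4ebp1 and Eif5a fell with it and lay 0.47 and 0.34 above the median on the log2 scale. The other 18 of the 29 fell with rapamycin and lay below the median in the MEFs too, Eif5, Eif2s1 and Eif2b3 among them.

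A last comparison set the untreated kidney lines against the MEFs, by a rule chosen after the values were seen, that both libraries of one kind lie at least 2-fold above both of the other. Of 62 members at least at 1 TPM in 1 of these 4 libraries, 2 were higher in kidney cells, against 8.31% of all genes, and 1 was lower, against 6.60%. Eif3j1 was 32.5 and 31.9 TPM in MKOC and TJ cells and 2.71 and 3.25 TPM in the MEFs, with the nearest libraries differing 7.74-fold. Its values are uncertain for the sequence it shares with Eif3j2, and the sum of both genes, taken after the values were seen, was 125 and 121 TPM in the kidney lines and 80.2 and 108 TPM in the MEFs, with the nearest libraries differing 1.12-fold. Eif1a exceeded the MEFs 2.01-fold between the nearest libraries, and Eif2ak2 was 2.42-fold lower in kidney cells.

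Of 41 members with more than 1 transcript, 40 had the same leading transcript in all 6 libraries, although its share of the gene's estimated counts could be low, as in Eef1b2 (41.3% to 45.4%). The exception was Eif5b. Another of its transcripts, of 690 bases, which led in none of the libraries, went from 138 counts in untreated to essentially none in treated TJ cells, while the gene sum went from 75.3 to 68.7 TPM. Of the 64 members 17 shared at least 10% of their words with other genes, Eef1a1 41.7% and Eif3c 33.6% among them, and 34 shared under 1%. The gene sharing most words with Eif3c, G730046D07Rik, was given at most 37.4 counts, against at least 15945 for Eif3c, and Gm13456, the gene sharing most with Eef1a1, at most 288 against at least 244409. Asxl2, which also shares words with Eif3c, was given 1617 to 4004 counts, up to 11.5% of those of Eif3c. Eif2s2 shared 12.4% of its words, and Cyld, among the genes sharing them, reached 56.0% of its counts.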

How the data were processed

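The authors trimmed reads with Trimmomatic and ran kallisto (versions are not given here); the methods name a human transcriptome although the identifiers are mouse. They deposited expected counts (estimated counts) and TPM for each transcript, together with a table of fold changes that was used only for its gene symbols. Estimated counts and TPM were summed per symbol. Symbols were missing for 1006 transcripts, which hold 0.372% to 0.468% of the counts and were left out. The members and all gene lists were chosen with earlier results of these data known.

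Rounded counts of the 4 kidney libraries were tested in edgeR 4.0.16 (filterByExpr, TMM, glmQLFit and glmQLFTest, line and treatment as factors, Benjamini-Hochberg at 0.05 over 12952 genes). With 1 residual degree of freedom, edgeR moderated the spread of each gene towards a trend over all genes tested. The SE, taken from the test statistic, and the p-values rest on this moderated spread. They do not measure the spread of a single gene between the lines, and hold only for these samples. The labels name the line of each library, which pairs the treated and untreated samples, and deviations from the group means correlated at 0.56 within a line. DESeq2 1.42.0 and limma 3.58.1 were alternatives. The script was tested on simulated data. Ratios of TPM between libraries used a pseudocount of 1 TPM, and ratios between genes of a library used none. Intervals of 95% cover counting error only. Named genes were fixed key factors, the 10 largest rises and falls called, every member past 2-fold in the MEFs, transcripts past 8-fold with 5 TPM, members below 1 TPM throughout, and the 3 largest rises and falls of other translation genes. Genes beyond these were chosen after their values were seen. Positions are from RefSeq promoter tables.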

Additional observations from a re-analysis of the deposited data

Results flagged for a closer look

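Signal outside the genes chosen by name appeared in 3 pseudogene symbols. Eif4a-ps4 reached 7871 estimated counts in untreated MKOC cells, with 5000 in treated MKOC cells and 7869 and 4447 in untreated and treated TJ cells. Eif1-ps1 reached 56.8 counts, in Tsc2+/+ MEFs, and Eif3s6-ps2 reached 21 counts, in Tsc2-/- MEFs. All exceed the 3 counts that a count of 0 allows.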

How the results depend on the processing

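For rapamycin, 5 members were higher and 29 lower. The counts were 2 and 26 with DESeq2 and also with limma on log2(TPM + 1), and 1 and 12 without the replicate block, that is without the line as a factor. Over all genes, 2267 were called higher and 2259 lower of 12952 in the main fit, and 1476 and 1603 with DESeq2. Limma called 1709 and 1793 of 12414, and without the block 559 and 716 of 12952 were called. The counts that kept their direction in either line alone, 5 to 5 and 28 to 29, come from the libraries that gave the calls and are no support for them. Of the 34 calls, 26 were kept in every setting with both factors, and 13 also without the block; Eif2a, Eif3f and Eif2ak3 were lost with DESeq2 and limma, Eef2k and Eif1 with limma, Eif3g with DESeq2, Eif6 with upper-quartile scaling, library size scaling and DESeq2, and Eif4h with these and with limma. Among the genes called higher Eif4b and Eef2 were the ones kept, and Eef2 was lost without the block (adjusted p = 0.091). Of the named genes not called, Eef1a1 and Eif4g2 were called without a filter (adjusted p = 0.002 and 0.0054), and Eif2ak2 with upper-quartile or library size scaling (0.045 and 0.048). For TJ against MKOC cells the 4 lower members became 7 without a filter, 1 with limma and 0 without treatment as a factor (the other factor of that fit), where no gene was called at all, and 4 to 4 kept their direction within either treatment, again in the libraries that gave the calls. Over all genes, 430 of 12952 were called lower in the main fit, 741 of 19780 without a filter and 142 of 12414 with limma. In the MEFs, the 4 higher members became 2 with the median ratio set to 1, 2 with CPM and 15 at 1.5-fold. The 2 lower members became 1 with a pseudocount of 5 TPM, 5 with the median ratio set to 1, 6 with CPM, 6 at 1.5-fold and 1 without transcripts under 300 bases, where the log2 change of Eef2k went from -1.22 to -0.19. The single member transcript past 8-fold became 17 with a pseudocount of 0.1 TPM and 0 with 5 TPM. Shares over all genes or transcripts were not computed for these MEF settings. The causes were not tested. No called change of a named gene reversed its direction. With 1 library per condition, differences between MEFs and between line responses have no replicate check.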
